A study of Mus musculus with 16 samples.

Results

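The receptors described here are 10 mouse odorant receptors chosen because they are well studied: Olfr2, Olfr15, Olfr16, Olfr17, Olfr73, Olfr78, Olfr151, Olfr160, Olfr1440 and Olfr1507. They were found by the gene symbol that the platform annotation gives each probe set, and 8 of the 10 had a probe set, 1 each, among 22206 tested probe sets and 1091 probe sets of odorant receptors. No probe set was named for Olfr78 or Olfr151, and both were not analysed here. Measurements came from 16 Clariom S arrays, which held RNA of sorted olfactory mucosa cells from S100a5-tauGFP reporter mice (strain C57BL/6, males and females, aged 7 to 12 weeks). Each array held 1 sort fraction of 1 pool of 3 mice, so that 4 groups of 4 arrays were compared: undecanal titled GFP+, vehicle titled GFP+, undecanal titled GFP- and vehicle titled GFP-. Undecanal, a fatty aldehyde odorant, or the filtered air that served as vehicle was delivered in pulses of 10 s every 20 min to mice kept singly in clean air chambers for 40 h, starting after 26 h. All mice of both agents carried the reporter and spent the 40 h in such chambers, and each value is that of pooled animals.

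An odorant receptor is a G protein-coupled receptor in the cilia of olfactory sensory neurons, and each mature neuron expresses mainly 1 receptor gene. Binding of an odorant activates the olfactory G protein Gnal and the adenylyl cyclase Adcy3, and cyclic AMP then opens a cation channel. Transcription of S100a5 in these neurons depends on their activity, so the reporter is meant to mark neurons that have responded, and their receptor mRNA names the receptors involved. Among the receptors measured, Olfr2, also called I7, is known for medium-chain aldehydes such as octanal. Olfr1440, or MOR215-1, responds to the musk odorant muscone, Olfr16, or MOR23, to lyral, Olfr73, or mOR-EG, to eugenol, and Olfr160, or M72, to acetophenone. Olfr15, or MOR256-17, is tuned broadly. Olfr17, or P2, and Olfr1507, or MOR28, have mostly served as models of axon targeting and of the choice of a single receptor gene. Olfr151, or M71, is a close paralog of Olfr160, and probes of close paralogs can share signal, so the values of Olfr160 are uncertain to that extent.

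For all 16 samples the GFP sign in the title was the opposite of that among the characteristics, and groups here follow the titles. S100a5, which drives the reporter, was lower in arrays titled GFP+ in 4 of 4 undecanal pools (difference in log2 level -0.97, SE 0.167, limma adjusted p = 0.000394) and in 4 of 4 vehicle pools (-0.91, SE 0.167, limma adjusted p = 0.000715), which goes against the titles. Of 5 genes raised by activity in these neurons, S100a5 among them, limma called 0 higher and 4 lower in arrays titled GFP+ in undecanal pools. In vehicle pools it called 0 higher and 5 lower, where 5.12% of all probe sets were called lower, against 4.36% in undecanal pools. If the characteristics hold, every difference between fractions below, and its change with undecanal, turns sign, while an effect of undecanal within a fraction does not. Omp, a marker of mature olfactory neurons, averaged between 18.80 and 18.85 on the log2 scale in the 4 groups. Of all 12 mature neuron markers, limma called 0 higher and 2 lower in arrays titled GFP+ with each agent. The shares of all probe sets called lower were 4.36% and 5.12% in undecanal and vehicle pools. The 12 averaged 16.10 to 16.21 and 16.16 to 16.22 in undecanal and vehicle arrays titled GFP+. In undecanal and vehicle arrays titled GFP- they averaged 16.26 to 16.52 and 16.35 to 16.46. Markers of other cells also differed between fractions. In undecanal pools limma called higher in arrays titled GFP+ all 8 neutrophil markers, all 5 measured markers of monocytes and macrophages, all 5 measured markers of basal progenitors, 4 of 8 markers of immature neurons and 3 of 6 of sustentacular cells, against 8.83% of all probe sets. In vehicle pools the counts were 8 of 8, 5 of 5, 4 of 5, 5 of 8 and 3 of 6 in the same order, against 8.82%. The mean log2 level over the neutrophil markers ran from 13.54 to 14.37 in undecanal arrays titled GFP+ and from 13.67 to 14.55 in vehicle arrays titled GFP+. It ran from 4.45 to 5.0 in undecanal arrays titled GFP-, where 6 of the 8 genes had means at or below the background level of 4.80, and from 4.59 to 5.41 in vehicle arrays titled GFP-, where 2 of 8 did. That background level was set from 358 probe sets of vomeronasal and bitter taste receptors, as the 95th percentile of their group means. The immature neuron markers averaged 12.98 to 13.42 and 13.19 to 13.29 in undecanal and vehicle arrays titled GFP+, against 11.63 to 11.94 and 11.69 to 11.88 in undecanal and vehicle arrays titled GFP-, and none was at background. The basal progenitor markers averaged 7.21 to 7.90 and 7.35 to 7.84 in undecanal and vehicle arrays titled GFP+, with 1 of 5 at or below background. They averaged 4.57 to 4.82 and 4.53 to 5.06 in undecanal and vehicle arrays titled GFP-, with 3 and 2 of 5 at or below it. The monocyte and macrophage markers averaged 9.90 to 10.9 and 10.3 to 10.7 in undecanal and vehicle arrays titled GFP+, against 4.29 to 4.92 and 3.82 to 4.87 in undecanal and vehicle arrays titled GFP-, with 3 and 4 of 5 at or below background in the last pair. Sustentacular markers averaged 9.47 to 10.3 and 9.26 to 10.1 in undecanal and vehicle arrays titled GFP+, against 8.08 to 9.04 and 7.48 to 9.06 in undecanal and vehicle arrays titled GFP-. The part of these other cells in the receptor differences was not tested, and in RNA of sorted bulk cells fewer cells of a type and less RNA per cell cannot be told apart.

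Short stretches before receptor genes carry sites for homeodomain proteins such as Lhx2 and for Olf1/Ebf factors, and both kinds of site are known from the start of Olfr16. RefSeq windows of build GRCm38.p6 matched 6 of the measured receptors. Windows of Olfr15, Olfr17, Olfr73, Olfr160 and Olfr1440 ended at, or 3 bases before, an ATG, which is taken here as the coding start. Annotated coding starts were not used. Of 948 receptor windows, 72.4% ended at an ATG itself, and such windows need not hold a promoter. The window of Olfr16 ended 29 bases before its first ATG. It is shown because Olfr16 was among the receptors that differed between fractions. It covers the 250 bases before the annotated start, chr1:172956518-172956767 on the plus strand, and capitals mark matches to TAATGA, a homeodomain type motif, read here on the opposite strand as TCATTA.
Olfr16: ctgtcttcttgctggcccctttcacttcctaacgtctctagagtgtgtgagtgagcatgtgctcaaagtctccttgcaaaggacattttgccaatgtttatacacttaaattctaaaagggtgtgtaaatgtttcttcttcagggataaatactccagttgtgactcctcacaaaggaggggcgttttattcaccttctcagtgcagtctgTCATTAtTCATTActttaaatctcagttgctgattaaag
The 2 matches begin 39 and 32 bases before the start and do not overlap. TAATGA, searched on both strands, was in 1 of the 6 windows, in 25.2% of the 948 receptor windows and in 8.59% of all 32851 windows. Among the 262 receptor windows that, like that of Olfr16, did not end at a coding start, the share was 31.3%. Of the other motifs searched on both strands, TATAAA was in the windows of Olfr16, Olfr73 and Olfr1440 and in 39.2% of receptor windows. TAATTG was in none of the 6 windows and in 22.6% of receptor windows. The homeodomain motif TAATTA was also in none of the 6, and in 18.0% of receptor windows. The Olf1/Ebf motif CCCNNGGG was in none of the 6, that of Olfr16 included, and in 2.74% of receptor windows. Over all windows the shares were 12.4% for TATAAA, 7.17% for TAATTG, 4.84% for TAATTA and 11.8% for CCCNNGGG.

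Between the sort fractions, arrays titled GFP+ had higher levels of 5 of the 8 receptors and lower levels of 2 in undecanal pools, and higher levels of 4 and lower levels of 2 in vehicle pools, in limma after adjustment over all probe sets. Olfr1507, Olfr1440, Olfr16 and Olfr73 were higher and Olfr15 and Olfr160 lower with both agents, Olfr2 passed in undecanal pools, and Olfr17 passed in neither. Such calls were common among receptors. In undecanal pools 57.8% of the 1091 receptors were called (24.2% higher and 33.6% lower), against 13.2% of all probe sets, and in vehicle pools 58.8% were called (22.6% higher and 36.1% lower), against 13.9%. The counts of 7 and 6 of 8 are read against these shares of all receptors. The median log2 difference of the 8 (titled GFP+ minus titled GFP-) amounted to 1.16 in undecanal pools and 0.89 in vehicle pools, beside -0.24 and -0.37 over all receptors and -0.11 and -0.11 over all probe sets. The 6 receptors that passed with both agents had titled GFP+ and titled GFP- arrays that did not overlap in either agent, which held for 57% and 55.1% of all receptors and 17.3% and 18.1% of all probe sets in undecanal and vehicle pools.

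**Figure D1:**
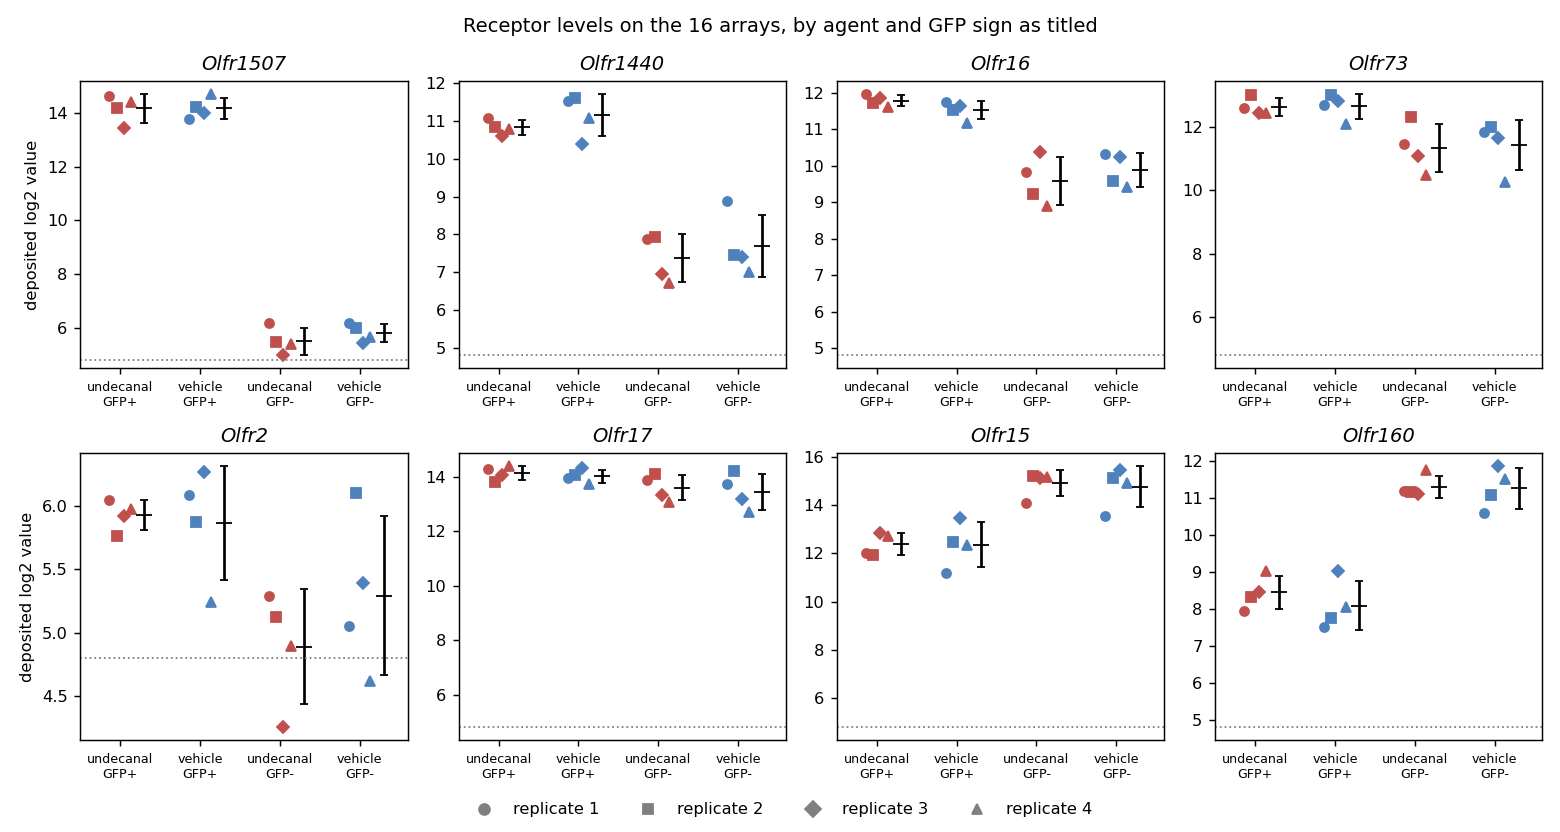
Deposited log2 value (vertical axis) of each measured receptor on each array, grouped by agent and titled GFP sign (horizontal axis). Points are arrays, marked by replicate number, black bars are the mean and SD of 4 arrays, and the dotted line is the background level of 4.80. Olfr1507 lies between 13.42 and 14.68 on arrays titled GFP+ and between 4.97 and 6.19 on arrays titled GFP-.

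Olfr1507 had log2 values of 14.64, 14.19, 13.42 and 14.42 in undecanal arrays titled GFP+ (replicates 1 to 4), against 6.18, 5.47, 4.97 and 5.37 in undecanal arrays titled GFP-. In vehicle pools it had 13.78, 14.21, 13.97 and 14.68 in arrays titled GFP+, against 6.19, 5.99, 5.41 and 5.65 in arrays titled GFP-. The 8 arrays titled GFP+ were thus far above the 8 titled GFP-, where the receptor was close to the background level. The difference was 8.67 in undecanal pools (SE 0.284, limma adjusted p = 6.56e-13), a 406-fold difference on the deposited scale, and 8.35 in vehicle pools (SE 0.284, limma adjusted p = 1.37e-12), or 327-fold. With both agents it ranked 1 from the top among the 1091 receptors.

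Olfr1440, the muscone receptor, had 11.08, 10.84, 10.60 and 10.79 in undecanal arrays titled GFP+, against 7.89, 7.93, 6.95 and 6.70 in undecanal arrays titled GFP-. Vehicle arrays titled GFP+ gave 11.52, 11.62, 10.40 and 11.08, against 8.89, 7.46, 7.40 and 7.02 in vehicle arrays titled GFP-. No array titled GFP- reached any array titled GFP+, and the vehicle array of replicate 1 was the highest of those titled GFP-. The difference was 3.46 with either agent (SE 0.367), an 11-fold difference, with limma adjusted p of 1.53e-06 in undecanal and 1.47e-06 in vehicle pools, and it ranked 90 and 91 from the top among the receptors in undecanal and vehicle pools.

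Olfr16, the lyral receptor, had 11.97, 11.71, 11.85 and 11.62 in undecanal arrays titled GFP+, against 9.82, 9.21, 10.37 and 8.90 in undecanal arrays titled GFP-. In vehicle pools the values were 11.75, 11.53, 11.63 and 11.18 in arrays titled GFP+, against 10.32, 9.57, 10.23 and 9.42 in arrays titled GFP-. The arrays titled GFP+ lay close together and above all those titled GFP-. Olfr16 was 2.21 higher in undecanal pools (SE 0.271, limma adjusted p = 8.74e-06) and 1.64 higher in vehicle pools (SE 0.271, limma adjusted p = 0.000254), or 4.63-fold and 3.11-fold.

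Olfr73, the eugenol receptor, had 12.59, 13.01, 12.42 and 12.43 in undecanal arrays titled GFP+, against 11.44, 12.30, 11.09 and 10.47 in undecanal arrays titled GFP-. Vehicle arrays gave 12.69, 12.98, 12.79 and 12.09 where titled GFP+, against 11.82, 12.00, 11.63 and 10.26 where titled GFP-. The fractions did not overlap within an agent, but the lowest vehicle array titled GFP+ was below the highest undecanal array titled GFP-. The difference was 1.29 in undecanal pools (SE 0.368, limma adjusted p = 0.0245) and 1.21 in vehicle pools (SE 0.368, limma adjusted p = 0.0345). Both calls were close to the threshold. In undecanal pools the call was lost without undecanal pool 1, 3 or 4 (limma adjusted p = 0.0833, 0.0893 and 0.107). In vehicle pools it was lost without undecanal pool 1 or 3 or any of the 4 vehicle pools (limma adjusted p from 0.0507 to 0.103). There it was also lost with arrays centred on their median (limma adjusted p = 0.051). With 1 pool left out the difference stayed between 1.07 and 1.48 in undecanal pools and between 1.00 and 1.32 in vehicle pools. Olfr73 was higher in arrays titled GFP+ in 4 of 4 pools of each agent.

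Olfr2, the aldehyde receptor, was close to the background level. It had 6.04, 5.76, 5.92 and 5.97 in undecanal arrays titled GFP+, against 5.29, 5.12, 4.25 and 4.89 in undecanal arrays titled GFP-, and 3 of those 4 were above the background level of 4.80. Vehicle arrays gave 6.08, 5.87, 6.26 and 5.24 where titled GFP+, against 5.05, 6.10, 5.39 and 4.62 where titled GFP-. The fractions did not overlap in undecanal pools and did overlap in vehicle pools, where pool 2 went the other way by -0.23. Olfr2 was 1.03 higher in arrays titled GFP+ from undecanal pools (SE 0.286, limma adjusted p = 0.0203) and 0.57 higher in those from vehicle pools (SE 0.286, limma adjusted p = 0.22), which did not pass. The call in undecanal pools was lost without undecanal pool 3 or 4 (limma adjusted p = 0.129 and 0.0759), with arrays centred on their median (limma adjusted p = 0.0512) and with quantile normalization (limma adjusted p = 0.0927).

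Olfr160, the acetophenone receptor, ran in the opposite direction. It had 7.96, 8.33, 8.47 and 9.03 in undecanal arrays titled GFP+, against 11.19, 11.2, 11.10 and 11.76 in undecanal arrays titled GFP-. In vehicle pools it had 7.51, 7.76, 9.02 and 8.04 in arrays titled GFP+, against 10.59, 11.1, 11.86 and 11.51 in arrays titled GFP-. Every array titled GFP+ was below every array titled GFP-. The difference was -2.85 in undecanal pools (SE 0.318, limma adjusted p = 2.79e-06) and -3.18 in vehicle pools (SE 0.318, limma adjusted p = 6.94e-07), or 7.23-fold and 9.05-fold lower, and it ranked 67 and 54 from the bottom among the 1091 receptors in undecanal and vehicle pools.

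Olfr15, the broadly tuned receptor, was also lower in arrays titled GFP+. It had 12.02, 11.94, 12.86 and 12.70 in undecanal arrays titled GFP+, against 14.10, 15.21, 15.11 and 15.17 in undecanal arrays titled GFP-. Vehicle arrays gave 11.17, 12.49, 13.45 and 12.35 where titled GFP+, against 13.54, 15.13, 15.46 and 14.90 where titled GFP-. Replicate 1 was the lowest array in 3 of the 4 groups, while the difference between fractions within those pools was -2.08 with undecanal and -2.37 with vehicle, beside -3.27 to -2.02 in the other 6 pools. The difference was -2.52 in undecanal pools (SE 0.439, limma adjusted p = 0.000436) and -2.40 in vehicle pools (SE 0.439, limma adjusted p = 0.00071).

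Olfr17, the P2 receptor, had 14.27, 13.80, 14.07 and 14.38 in undecanal arrays titled GFP+, against 13.87, 14.10, 13.34 and 13.08 in undecanal arrays titled GFP-. Vehicle arrays gave 13.94, 14.08, 14.31 and 13.74 where titled GFP+, against 13.73, 14.21, 13.18 and 12.69 where titled GFP-. The fractions overlapped with both agents, and pools numbered 2 went the other way. The difference of 0.53 in undecanal pools (95% interval -0.06 to 1.13, limma adjusted p = 0.263) and of 0.57 in vehicle pools (-0.03 to 1.16, limma adjusted p = 0.216) did not pass. With arrays centred on the receptor median the value in vehicle pools was 0.80 and passed (limma adjusted p = 0.0435).

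**Figure D2:**
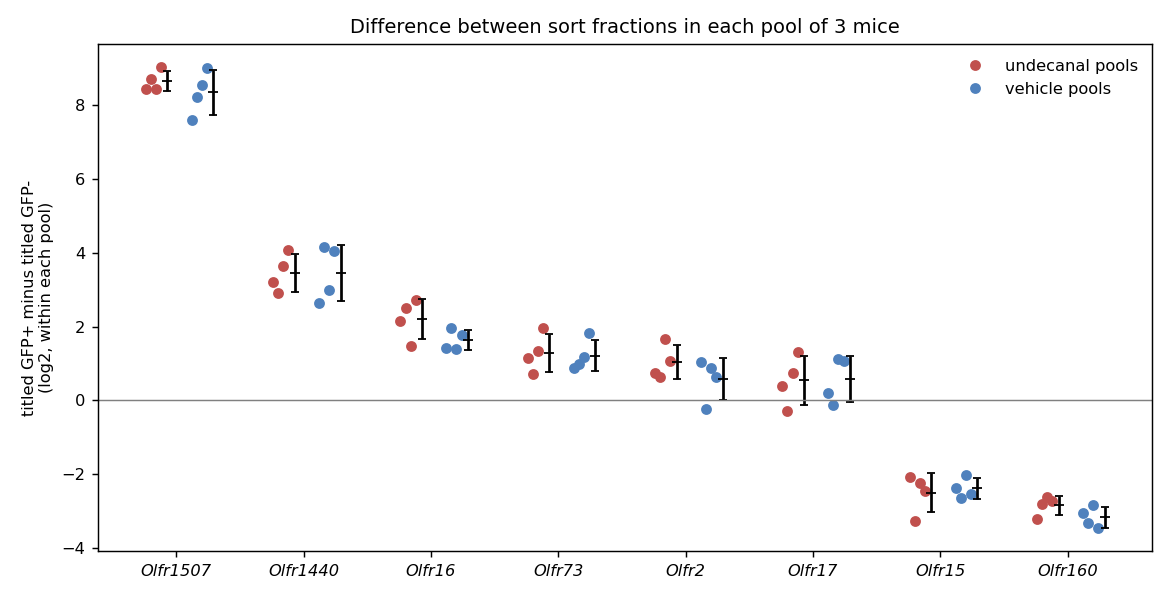
Titled GFP+ minus titled GFP- log2 difference within each pool (vertical axis) for each receptor (horizontal axis), undecanal pools left of vehicle pools. Points are pools of 3 mice and black bars are the mean and SD of 4 pools. Olfr1507 lies between 7.60 and 9.04, Olfr15 and Olfr160 lie below 0 in all 8 pools, and Olfr17 lies on both sides of 0.

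Taken within pools, the spread of these differences was small beside their size for most of the receptors. For Olfr160 they averaged -2.85 ± 0.267 in undecanal pools and -3.18 ± 0.278 in vehicle pools (SD, n = 4 each). For Olfr1507 they averaged 8.67 ± 0.281 in undecanal pools and 8.35 ± 0.602 in vehicle pools (SD, n = 4 each). Those of Olfr17 and Olfr2 spread widely, with SDs of 0.667 and 0.462 in undecanal pools and 0.625 and 0.562 in vehicle pools. A replicate block for the pool left the same 7 receptors called in undecanal pools and the same 6 in vehicle pools.

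Undecanal against vehicle addressed whether exposure to the aldehyde altered receptor mRNA within a sort fraction. None of the 8 receptors passed in limma in either fraction, and none had an unadjusted p under 0.05. The background was low too: 0.0045% of all probe sets were called in arrays titled GFP+ and 0% in arrays titled GFP-, and 0% of the 1091 receptors in both. At an unadjusted p under 0.05 there were 39 receptors and 603 probe sets in arrays titled GFP+ and 68 receptors and 914 probe sets in arrays titled GFP-. The groups of undecanal and vehicle arrays overlapped for all 8 receptors in both fractions, while groups did not overlap for 1.19% of receptors and 1.87% of all probe sets in arrays titled GFP+, and for 1.74% of receptors and 2.2% of all probe sets in arrays titled GFP-. The median difference of the 8, undecanal minus vehicle, was 0.04 in arrays titled GFP+ and -0.21 in arrays titled GFP-, beside 0.00 and -0.09 over all receptors.

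Olfr2, whose known ligands are aldehydes, averaged 5.92 ± 0.119 in undecanal and 5.86 ± 0.448 in vehicle arrays titled GFP+ (SD, n = 4 each). The difference was 0.06 (95% interval -0.54 to 0.66). In arrays titled GFP- it averaged 4.89 ± 0.455 with undecanal and 5.29 ± 0.628 with vehicle (SD, n = 4 each), a difference of -0.40 (95% interval -1.01 to 0.20). Leaving out 1 pool at a time moved the second value between -0.63 and -0.13, with -0.13 reached without vehicle pool 2 (SE 0.273). Neither interval is a limit of detection, since the adjustment over all probe sets asks for more than an interval that leaves out 0.

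Among the receptors of other odorants, Olfr160 in arrays titled GFP+ had a mean of 8.45 ± 0.447 in undecanal and 8.09 ± 0.662 in vehicle arrays (SD, n = 4 each), a difference of 0.36 (95% interval -0.31 to 1.03). In arrays titled GFP- its means were 11.30 ± 0.308 with undecanal and 11.26 ± 0.549 with vehicle (SD, n = 4 each). Olfr16 differed by 0.26 (95% interval -0.31 to 0.83) in arrays titled GFP+ and by -0.31 (95% interval -0.88 to 0.26) in arrays titled GFP-. Olfr1440 was 0.32 below vehicle in both fractions, with 95% intervals of -1.10 to 0.45 in each, which include 0. Olfr1507 differed by 0.00 (95% interval -0.60 to 0.60) in arrays titled GFP+ and by -0.31 (95% interval -0.91 to 0.29) in arrays titled GFP-. Values for Olfr15, Olfr17 and Olfr73 lay between -0.11 and 0.14 in both fractions, and none of these signs is a call.

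**Figure D3:**
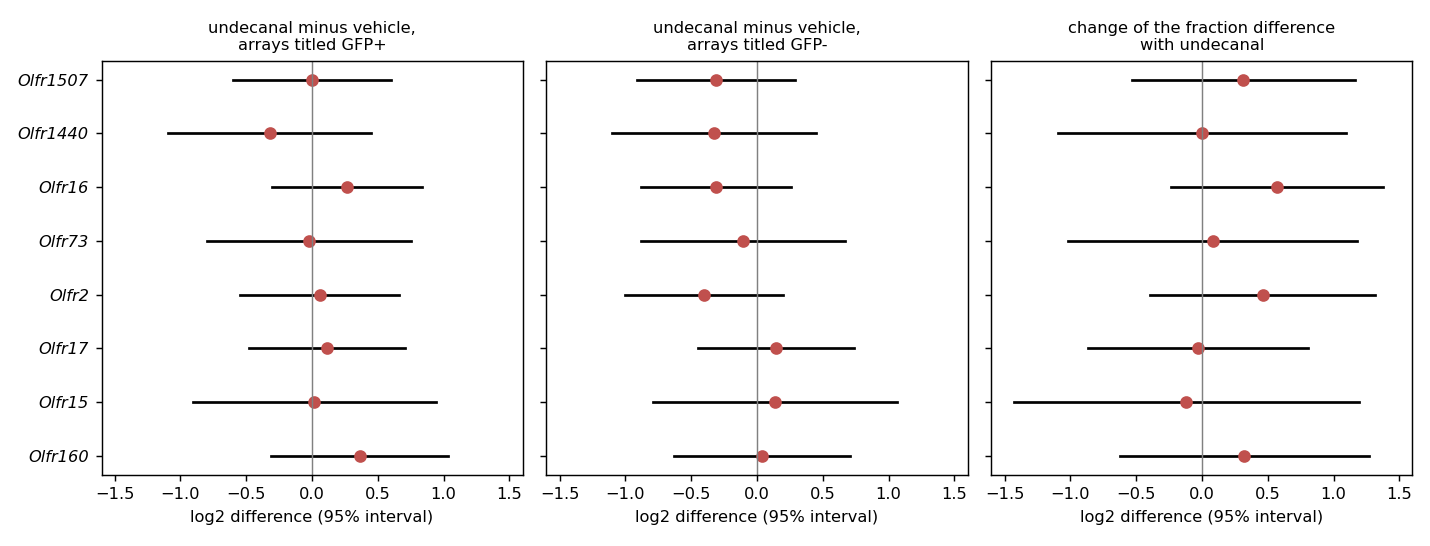
Undecanal minus vehicle log2 difference in arrays titled GFP+ (left panel) and titled GFP- (middle panel), and change of the fraction difference with undecanal (right panel), for each receptor. Points are limma estimates, lines are 95% intervals, and the interval of every receptor includes 0 in all 3 panels.

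The change of the fraction difference with undecanal asked whether receptor mRNA shifted between the fractions on exposure. It passed for none of the 8 receptors in limma, and none had an unadjusted p under 0.05, beside 0% called among all probe sets, 31 of 1091 receptors and 584 of 22206 probe sets at an unadjusted p under 0.05. Olfr16 had a fraction difference of 2.21 in undecanal pools and 1.64 in vehicle pools, a change of 0.57 (95% interval -0.24 to 1.38). For Olfr2 the change was 0.46 (95% interval -0.39 to 1.31), so the call of Olfr2 in undecanal pools and its absence in vehicle pools do not show that the agents differed. Olfr1440 had a change of 0.00 (95% interval -1.09 to 1.10), and Olfr15 one of -0.12 (95% interval -1.43 to 1.19).

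The means of the 4 groups were set in order for each receptor, and the order itself was not tested. Olfr1507, Olfr1440, Olfr16 and Olfr73 had both titled GFP+ means above both titled GFP- means. The undecanal and vehicle means within a fraction were not called different in limma, which does not show that they were equal. Olfr15 and Olfr160 had the reverse order. For Olfr2 the order was 5.92 in undecanal titled GFP+, 5.86 in vehicle titled GFP+, 5.29 in vehicle titled GFP- and 4.89 in undecanal titled GFP-. Of the pairs tested, only the fractions of undecanal pools were called different. For Olfr17 the means ran from 13.45 to 14.13, with both titled GFP+ means the higher, and no tested pair passed in the main fit.

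Odorant receptor genes lie in clusters, and neighbours in gene order were compared with the listed receptors. A neighbour is the next receptor with a probe set on the same chromosome, at any distance, so it may lie in another cluster. Words such as beside refer here to this order and not to distance. Each listed receptor had 2 neighbours with a probe set, 16 in all. Of these, Olfr161 beside Olfr15 and Olfr1441 beside Olfr1440 had all 4 group means below background. In vehicle pools 8 of the 16 had the sign of their listed receptor, counting values that did not pass. Next to Olfr1507 lay Olfr1508, which differed by -0.22 in undecanal pools (SE 0.391, limma adjusted p = 0.785) and by -0.13 in vehicle pools (SE 0.391, limma adjusted p = 0.872), and Olfr49, at 1.25 and 0.68, and neither passed. Olfr1440 had Olfr1437 on one side, which was 4.46 higher in arrays titled GFP+ from undecanal pools and 4.48 higher in those from vehicle pools (SE 0.413, limma adjusted p = 2.73e-07 and 2.46e-07). Olfr15, lower in arrays titled GFP+, lay beside Olfr19, which was 5.20 higher in undecanal pools and 4.44 higher in vehicle pools (SE 0.291, limma adjusted p = 4.33e-10 and 2.97e-09). Olfr160, also lower, lay beside Olfr18, which was not above background in arrays titled GFP- (means 4.2 in undecanal and 4.29 in vehicle pools). With arrays under the background level set to it, Olfr18 was at least 11.6-fold higher in undecanal pools and at least 9.23-fold higher in vehicle pools. These bounds were not tested. With the values as deposited Olfr18 passed in undecanal and vehicle pools (limma adjusted p = 2.26e-07 and 5.07e-07). On its other side Olfr874 had differences of -0.41 in undecanal and -0.72 in vehicle pools, which did not pass (limma adjusted p = 0.603 and 0.298). The neighbours of Olfr2, Olfr711 and Olfr713, were higher in arrays titled GFP+, by 1.78 and 1.37 in undecanal pools and by 1.58 and 1.49 in vehicle pools, and all 4 values passed. Beside Olfr16, Olfr12 had -0.55 and -0.68 and Olfr1408 -0.66 and -0.12 in undecanal and vehicle pools. Only the -0.66 passed. Beside Olfr17, Olfr714 had 0.61 and 1.03, where only 1.03 passed, and Olfr715b passed in neither. Beside Olfr73, Olfr1162 had 1.09 and 0.55, where only 1.09 passed, and Olfr1161 passed in neither.

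**Figure D4:**
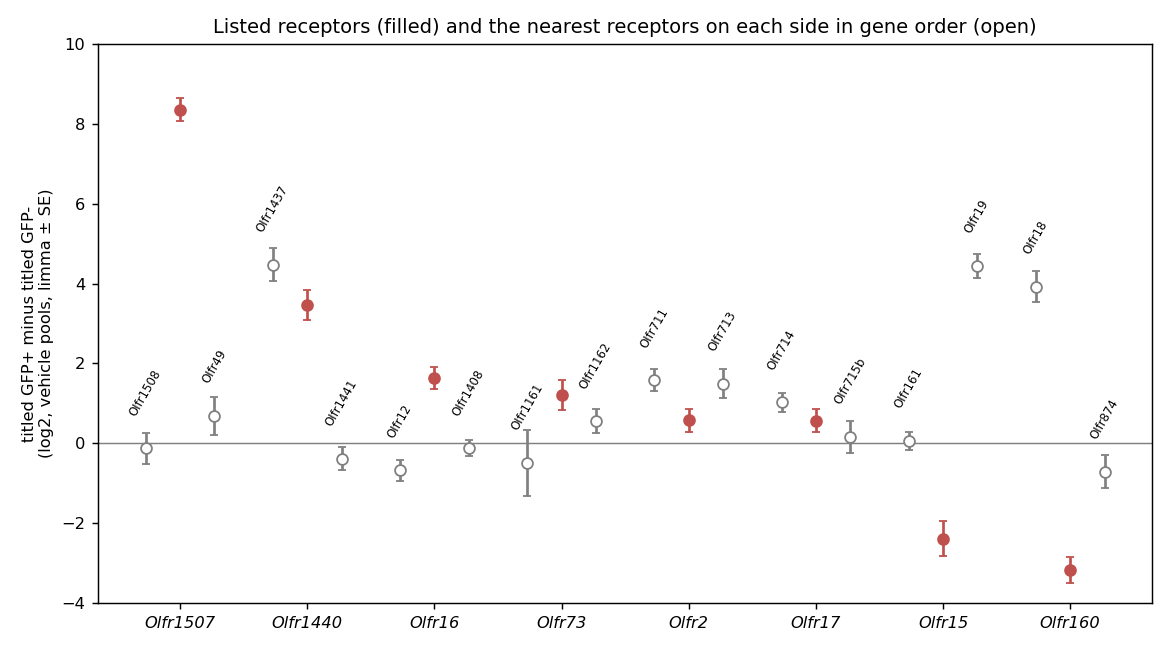
Titled GFP+ minus titled GFP- log2 difference in vehicle pools (vertical axis, limma estimate with SE) of each listed receptor (filled) and of its neighbouring receptors in gene order (open, named). Neighbours were taken at any distance on the chromosome. Olfr15 and Olfr160 are below 0 at -2.40 and -3.18, while Olfr19 beside Olfr15 is at 4.44, and beside Olfr160 are Olfr874 at -0.72 and Olfr18, plotted at its fitted value although not above background in arrays titled GFP-.

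Likeness over all 16 arrays was measured as the root mean square difference between 2 probe sets, each centred on its own mean, over 19504 other named genes. Olfr160 was most like Olfr201 (0.271 on the log2 scale), which differed between fractions by -3.21 in undecanal and -3.47 in vehicle pools, and next the trace amine receptor Taar4 (0.353). Olfr15 was most like Olfr876 (0.371) and Olfr968 (0.376), and Olfr73 most like Olfr804 (0.281) and Olfr713 (0.317). Olfr16 was nearest to Olfr1217 (0.332), Olfr17 to Olfr784 (0.260) and Olfr1440 to Olfr1196 (0.366). Olfr1507 was nearest to Mmp8 (0.591) and next to Olfr1213 (0.601). Mmp8, a neutrophil collagenase, was not above background in arrays titled GFP- (means 3.91 in undecanal and 3.75 in vehicle pools), so its difference and this likeness rest on values below that level. Olfr2 was nearest to Plekhg3 (0.328) and Efnb2 (0.33), neither a receptor of odorants and both near the background level as well.

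Of 7 other receptors with reported ligands, Olfr1019, known for the fox odour trimethylthiazoline, was higher in arrays titled GFP+, by 4.90 in undecanal pools (SE 0.433, limma adjusted p = 1.49e-07) and by 4.34 in vehicle pools (SE 0.433, limma adjusted p = 6.86e-07). Olfr288 was lower, by -1.54 in undecanal pools (limma adjusted p = 0.0136) and -1.42 in vehicle pools (limma adjusted p = 0.0225). Olfr124 was lower in vehicle pools (-1.19, limma adjusted p = 0.0136) and had -0.73 in undecanal pools, which did not pass. The other 4 of the 7, Olfr544, Olfr545, Olfr558 and Olfr690, passed in neither, and none of the 7 passed for undecanal against vehicle in limma. Of 18 genes of olfactory transduction and receptor trafficking, arrays titled GFP+ had 0 at a higher and 4 at a lower level in undecanal pools, and 0 at a higher and 5 at a lower level in vehicle pools, against 8.83% and 8.82% of probe sets called higher and 4.36% and 5.12% called lower. The phosphodiesterase Pde1c (-0.52 and -0.65), the chloride channel Ano2 (-0.42 and -0.51), the exchanger Slc24a4 (-0.44 and -0.60) and the creatine kinase Ckb (-0.41 and -0.42) passed in undecanal and vehicle pools. The receptor chaperone Rtp1 differed by 0.00 and -0.17, and Gnal by -0.06 and -0.15, and neither passed. None of the 18 passed for undecanal against vehicle.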

How the data were processed

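RNA of sorted cells was hybridised to Clariom S arrays from 50 to 100 ng of total RNA, per the labels' protocols. The authors deposited log2 probe set summaries that, per the submitters' processing notes, came from Affymetrix Expression Console; its version, algorithm and annotation were not given in the sources used here. Of 28846 rows, 6640 control rows were left out. The platform annotation named 19572 of the 22206 probe sets with 1 gene and 2634 with none. All named gene IDs matched the RefSeq table of GRCm38.p6. Depth is not defined for arrays; the number of arrays limits the precision.

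With limma 3.58.1 in R 4.3.3, the 16 arrays were fitted together, with a mean for each of the 4 groups and no block, with Benjamini-Hochberg adjustment over all probe sets and a threshold of 0.05. It was tested on simulated data with large added changes and no deviation shared within pools. That test does not show whether small changes would be found. P-values of the main fit measure the spread between arrays of a group, each from another pool of mice. Both fractions of a pool entered that fit as if independent. The spread of differences within pools was used only with a replicate block for the pool. The 24 mice in pools of 3 give 8 pools, so the fractions with 1 number and agent are taken as the same mice; their deviations from group means had r of 0.050 to 0.271 (6 of 8 pairs over 0.1). The receptors and lists were chosen with earlier results of these data known. Named genes were the listed receptors, their neighbours in gene order, the 2 genes most like each, S100a5, Omp and up to 4 genes a list. Receptors nearest in protein sequence, also planned, were not analysed here. Alternatives covered scaling, a filter on dim probe sets, the prior variance, replicate blocks, the groups in the fit and left-out pools.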

Additional observations from a re-analysis of the deposited data

Results flagged for a closer look

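Among 48 sets of 4 values (each receptor in each group, and each receptor's difference between fractions by agent), 2 had an end value far from the other 3, where chance gives about 2.4 at 1 in 20. Olfr15 in undecanal arrays titled GFP- had its lowest value in replicate 1, at 14.10, against 15.11 to 15.21 in the other 3. Olfr160 in undecanal arrays titled GFP- had its highest value in replicate 4, at 11.76, against 11.10 to 11.19 in the other 3. Without undecanal pool 1 the fraction difference of Olfr15 in undecanal pools was -2.66, and without undecanal pool 4 that of Olfr160 was -2.90, and both were still called in limma.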

How the results depend on the processing

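The number of the 8 receptors called stayed within 1.5 times its value in every alternative run: 0 for undecanal against vehicle in both fractions and for the change of the fraction difference, 5 to 7 between fractions in undecanal pools, and 5 to 7 in vehicle pools. With the pool of mice as a replicate block, random or fixed, the counts were 7 and 6, as without it, and with the replicate number as a block 0 receptors passed for undecanal in either fraction. Calls lost and gained are given beside their receptors. Centring arrays on their median moved the median fraction difference of all probe sets to -0.46 in undecanal and -0.47 in vehicle pools, and the number of probe sets called from 2929 to 12713 and from 3097 to 12801, while no called receptor changed sign under any scaling. Sign turned under scaling for uncalled values alone. With receptor median centring Olfr15 (-0.0098) and Olfr1507 (-0.026) turned for undecanal in arrays titled GFP+, Olfr73 (0.022) in arrays titled GFP-, and Olfr73 (-0.073) and Olfr1440 (-0.15) for the change, which was -0.00052 for Olfr1440 with median centring and -0.037 with quantile normalization. With 1 pool left out, undecanal minus vehicle in arrays titled GFP+ ran from -0.15 to 0.19 for Olfr2, -0.38 to 0.38 for Olfr15, -0.21 to 0.090 for Olfr73 and -0.16 to 0.25 for Olfr1507. In arrays titled GFP- it ran from -0.27 to 0.40 for Olfr15, -0.11 to 0.39 for Olfr17, -0.49 to 0.18 for Olfr73, -0.19 to 0.24 for Olfr160 and -0.55 to 0.076 for Olfr1440. The change ran from -0.27 to 0.13 for Olfr15, -0.29 to 0.25 for Olfr17, -0.14 to 0.29 for Olfr73 and -0.28 to 0.23 for Olfr1440. The cause of these shifts was not tested. Signal near background limits Olfr2 and, in arrays titled GFP-, Olfr1507.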

Other observations

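Replicate number went with the level of some receptors in several groups at once. Arrays numbered 4 held the lowest Olfr16 value in 4 of 4 groups, arrays numbered 2 the highest Olfr73 value in 4 of 4, and arrays numbered 1 the lowest Olfr160 value in 3 of 4. For Olfr2 and Olfr1440 no number was lowest or highest in more than 2 of 4. These examples were picked after looking at all receptors and numbers, and were not tested. The 2 fractions of a pool are taken as the same mice, so the 4 groups are not independent. Same-numbered arrays of 1 fraction and different agents correlated in their deviations from group means with r from -0.042 to 0.291 over 8 pairs. The labels do not say what the numbers share across agents.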
